A study of Mus musculus with 15 samples.

Results

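The genes described are the receptors and Smads that carry Activin, Nodal and TGF-beta signals, measured in mouse embryonic stem cells. They are 10 genes of the 24451 in the deposited table, chosen by name, with earlier results of these data known. Among them are the type I receptors Acvr1b, Acvr1c and Tgfbr1, and the type II receptors Acvr2a, Acvr2b and Tgfbr2. The others are the receptor-regulated Smad2 and Smad3, the common Smad4, and Trim33, a ubiquitin ligase. All 10 were found, and 9 passed the filter on low counts. Acvr1c did not pass.

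The cells were of the line ES-R1, at fewer than 20 passages, grown without serum in DMEM with the supplements N2 and B27, and differentiated over 4 days. The 5 groups of 3 libraries were Vprbp siRNA with Activin A at 25 ng/ml, Vprbp siRNA without addition, control siRNA with Activin A at 25 ng/ml, control siRNA with the inhibitor named SB431524 in the sample titles and SB431542 in the series text (called SB here, at a dose the labels do not state), and control siRNA without addition. All cells had thus received an siRNA, and no Vprbp siRNA group with SB was analysed here. All libraries come from 1 cell line. Whether replicates were separate cultures is not stated, so the p-values reflect only how far these libraries spread, which may be technical.

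Activin and Nodal bind a type II receptor, Acvr2a or Acvr2b, which phosphorylates a type I receptor, Acvr1b (ALK4) or Acvr1c (ALK7). TGF-beta uses Tgfbr2 and Tgfbr1 (ALK5). The type I receptor phosphorylates Smad2 and Smad3, which join Smad4 and bind DNA with partner proteins. SB blocks the kinases ALK4, ALK5 and ALK7, all of them type I receptors on the gene list. In embryonic stem cells the Acvr branch is known for its part in pluripotency and in mesendoderm formation, and Trim33 is known both as a ligase for Smad4 and as a chromatin-bound partner of Smad2 and Smad3.

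Each library had between 11146183 and 15527245 gene counts. Levels are CPM (counts per mega-count of the library, after TMM scaling). The 8 pluripotent cell markers checked were each at or above 1 CPM on average in every group. Lefty1, a target of the pathway, was at 1.38 to 1.81 CPM with SB and 239 to 272 CPM with Activin, against 38.1 to 105 CPM in control siRNA cells without addition. Vprbp was at 114 to 132 CPM with Vprbp siRNA, against 167 to 173 CPM with control siRNA, both without addition. On principal components 3 libraries lay apart from their groups: the replicates numbered 3 of both siRNAs without addition, and the first replicate of Vprbp siRNA with Activin. Values without them are given beside the results they moved most.

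Acvr1b, Acvr2a and Acvr2b of the Activin branch were more abundant in RNA than Tgfbr2, the TGF-beta type II receptor. To compare genes, CPM were divided by the length in kb of all annotated exons of each gene. The lengths are from GENCODE M21 and may differ from the submitters' annotation. In RefSeq the 3′ end of Acvr2b lies further out, at 119442148 against 119434995 in GENCODE. That of Smad4 does too, at 73634790 against 73639009. For Tgfbr2 the GENCODE 3′ end lies further out, at 116084293 against 116087695 in RefSeq. The order and shares per kb, the rank of Acvr2b and the share of Tgfbr2 included, are those for the GENCODE lengths and may change with others. In control siRNA cells without addition the type II receptor Acvr2b was the most abundant, at 76.9 ± 13.4 CPM per kb (SD, n = 3). Smad4 followed at 42.2 ± 1.3, Trim33 at 18.2 ± 1.1, Smad2 at 15.15 ± 0.10, Acvr1b at 12.8 ± 0.7, Smad3 at 11.9 ± 1.9, Tgfbr1 at 8.69 ± 0.63, Acvr2a at 4.77 ± 0.28 and Tgfbr2 at 0.553 ± 0.039 CPM per kb. Only Acvr1b and Smad3 overlapped as neighbours in this order. Among the 3 type II receptors listed, which leave out those of BMP and AMH, Acvr2b made up 92.1% to 94.4% of the RNA per kb in those 3 libraries, Acvr2a 4.97% to 7.1% and Tgfbr2 0.604% to 0.781%.

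Acvr1c, the type I receptor ALK7, was near absent. It had 2 counts in replicate 2 of Vprbp siRNA with Activin and 0 counts in each of the other 14 libraries. With 3 counts as the limit that a count of 0 allows, the upper bound per library was 0.196 to 0.271 CPM, for counting error only. Of the 3 type I receptors listed, Acvr1b and Tgfbr1 thus gave nearly all the RNA.

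**Figure D1:**
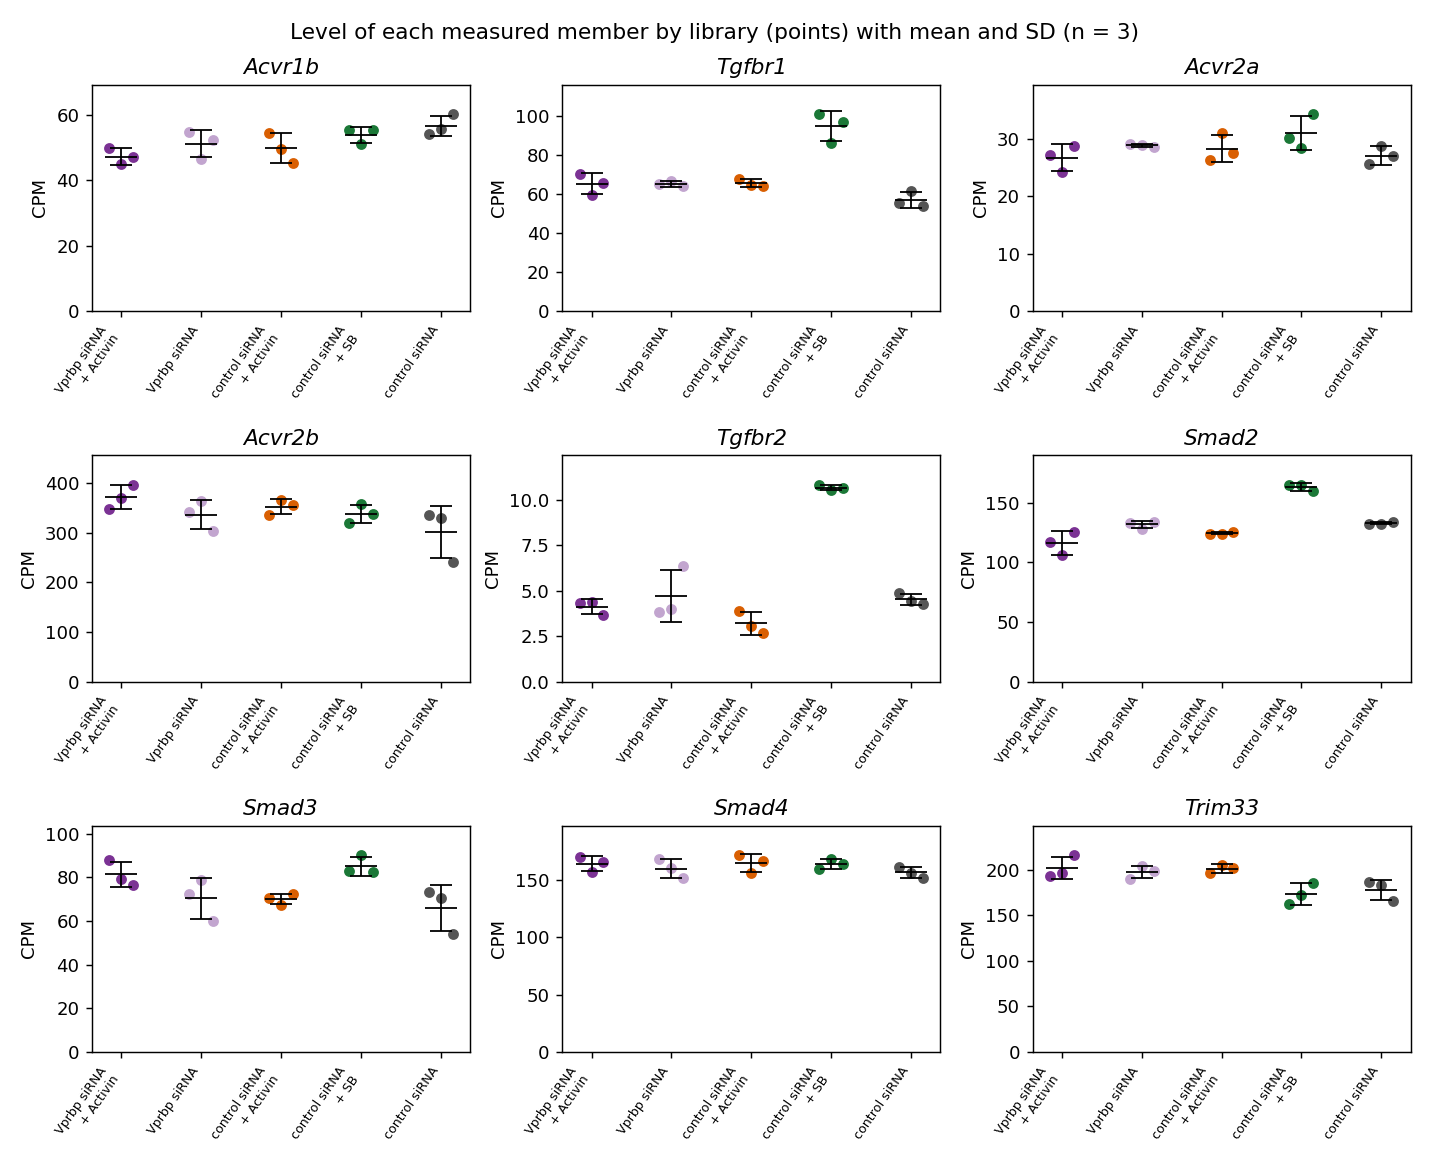
CPM of the 9 members that passed the filter, in each library (points, 3 per group) with the group mean and SD (black); the y axis starts at 0 and differs between genes. Tgfbr1, Tgfbr2, Smad2 and Smad3 were highest with SB, at group means of 94.6, 10.7, 163 and 85.1 CPM. The Smad3 range with SB, 82.4 to 90.1 CPM, overlapped that of Vprbp siRNA with Activin, 76.7 to 88.0 CPM.

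With SB, both TGF-beta receptor genes and both receptor-regulated Smads rose, while Acvr1b, Acvr2a, Acvr2b, Smad4 and Trim33 did not pass the test. In the edgeR quasi-likelihood fit, 4 of 9 members rose and 0 fell at a threshold of 0.05 on p-values adjusted over 14600 genes by Benjamini and Hochberg. Over all genes tested 22.6% were called, 11.2% higher and 11.3% lower. Group ranges did not overlap for these 4 of 9 members and for 37.2% of all genes. The median log2 fold change was 0.19 over the members and -0.0048 over all genes tested. In these bulk samples, a change in the share of a cell type and a change in RNA per cell cannot be told apart.

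Tgfbr2, the receptor that binds TGF-beta itself, changed most. It was at 10.8, 10.6 and 10.7 CPM in the SB libraries, against 4.89, 4.42 and 4.27 CPM in control siRNA cells without addition. Every SB library lay above every library without addition. Its fold change was 2.36, a log2 fold change of 1.24 ± 0.19 (SE; edgeR adjusted p = 6.01e-05). Tgfbr2 remained the least abundant of the 5 receptors on the list that passed the filter, at 1.31 ± 0.02 CPM per kb with SB, or 1.33% to 1.51% of the RNA per kb of the 3 type II receptors listed.

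Tgfbr1, the type I partner of Tgfbr2, was at 101, 86.1 and 97.1 CPM with SB, against 55.2, 61.5 and 53.7 CPM without addition. The groups did not overlap, and the log2 fold change was 0.74 ± 0.08 (edgeR adjusted p = 7.79e-07), a fold of 1.67. Acvr1b, the other type I receptor, was at 55.4, 51.1 and 55.3 CPM with SB, against 54.0, 55.5 and 60.1 CPM without addition, and these ranges overlapped. Its log2 fold change was -0.07 with a 95% interval of -0.24 to 0.10. Within a library the ratio of Tgfbr1 to Acvr1b per kb was 1.23, 1.14 and 1.19 with SB, against 0.692, 0.748 and 0.604 without addition. Tgfbr1 thus exceeded Acvr1b per kb in each of the 3 SB libraries. In the other groups the ratio reached at most 0.968. Whether the ratio lies above 1 depends on the exon lengths used, while its shift between groups does not. In CPM the mean of Tgfbr1 was above that of Acvr1b without SB as well. It was 56.8 against 56.5 CPM without addition and 65.6 against 49.8 CPM with Activin, both with control siRNA.

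Smad2 was at 165, 165 and 160 CPM with SB, against 132, 133 and 134 CPM without addition. The shift was small beside those of the receptors but the replicates lay close together, and the log2 fold change was 0.30 ± 0.06 (edgeR adjusted p = 0.00116). Smad3 was at 82.7, 90.1 and 82.4 CPM with SB, against 73.2, 70.7 and 54.2 CPM without addition. The groups did not overlap, with a log2 fold change of 0.36 ± 0.10 (edgeR adjusted p = 0.0145). Replicate 3 of the libraries without addition, 1 of those that lay apart, was the low one. Without it the log2 fold change of Smad3 was 0.24 and did not pass (edgeR adjusted p = 0.0638), nor did it without SB replicate 2 (0.33, adjusted p = 0.0628). Without all 3 libraries that lay apart it passed, at 0.24 (adjusted p = 0.00868). Tgfbr1, Tgfbr2 and Smad2 passed in all 14 alternatives run, those without these libraries included.

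The common Smad4 was at 160, 168 and 164 CPM with SB, against 162, 156 and 152 CPM without addition, and overlapped between the groups. Its log2 fold change was 0.07 with a 95% interval of -0.06 to 0.19. Over all 5 groups the mean log2 level of Smad4 spanned 0.07, at percentile 1.29 of the spans of all genes tested, while that of Tgfbr2 spanned 1.71, at percentile 95.4. The median span over all genes was 0.37.

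The Activin type II receptors did not pass with SB. Acvr2b was at 319, 357 and 337 CPM with SB, against 335, 329 and 242 CPM without addition. The low library was again replicate 3 without addition: the log2 fold change was 0.16 (95% interval -0.05 to 0.37) with it and 0.02 without it. Acvr2a was at 30.2, 28.5 and 34.3 CPM, against 25.6, 28.8 and 27.0 CPM, a log2 fold change of 0.19 (-0.0033 to 0.39). Trim33 was at 162, 173 and 186 CPM with SB, against 186, 183 and 166 CPM, a log2 fold change of -0.04 (-0.18 to 0.10).

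**Figure D2:**
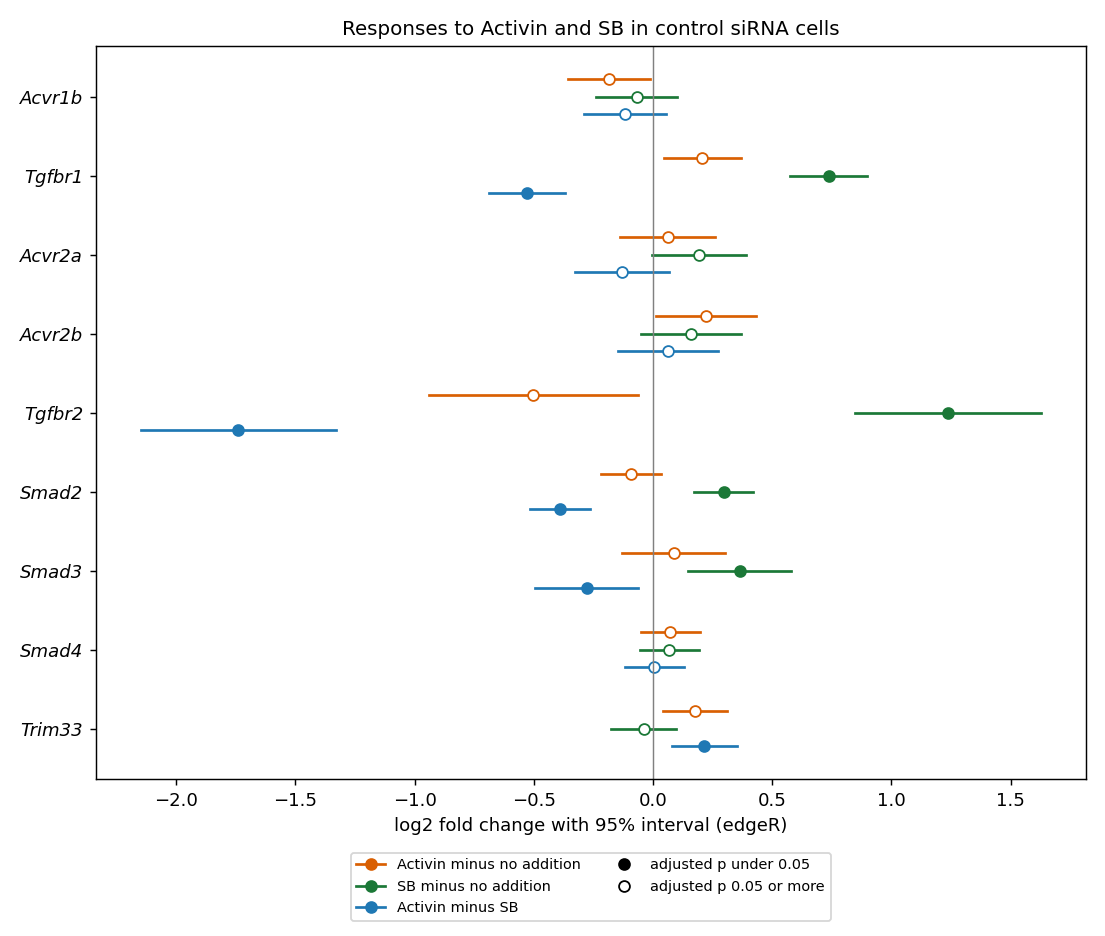
Log2 fold change (points) with 95% interval (lines) of 9 members for 3 comparisons in control siRNA cells; filled points passed an edgeR adjusted p of 0.05. SB minus no addition was filled for Tgfbr1, Tgfbr2, Smad2 and Smad3 (0.74, 1.24, 0.30 and 0.36), and no member was filled for Activin minus no addition.

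Some markers of cell types were called with SB as well. Their counts are to be read against 11.2% of all genes called higher and 11.3% called lower. Of 8 pluripotent cell markers 6 fell and 0 rose, and their summed level was 2336 to 2672 CPM with SB, against 3926 to 4309 CPM without addition. Of 8 fibroblast markers, a cell type in which Tgfbr2 is abundant, 6 were tested, 2 fell and 0 rose, with summed levels of 41.4 to 46.7 CPM with SB, against 57.3 to 76.4 CPM. Dcn, Lum and Postn averaged under 1 CPM in both groups. Trophoblast markers were at 280 to 324 CPM in sum with SB, against 191 to 219 CPM, with 3 of 7 tested higher, 0 lower and Elf5 at 0 counts without addition. Extraembryonic endoderm markers were at 236 to 281 CPM, against 176 to 207 CPM, with 2 of 7 tested higher, 0 lower and Afp at 0 counts in both groups. Neuroectoderm markers were at 282 to 303 CPM, against 256 to 348 CPM, with 3 of 8 higher and 1 lower. The sums are set mostly by the most abundant genes. Lama1 averaged 149 CPM with SB against 99.0 CPM in the endoderm sum, where Gata6 averaged 14.6 against 20.3 CPM. Otx2 averaged 97.5 against 127 CPM in the neuroectoderm sum, where Hesx1 averaged 22.1 against 1.70 CPM. The part of these cell types in the receptor and Smad changes was not tested.

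Promoter sequences are shown for Tgfbr1, Tgfbr2 and Smad3, which rose together with SB, and for Acvr1b, the type I receptor that did not pass. Each sequence is the 250 bases before the annotated start, 5′ to 3′ on the gene's strand, from RefSeq on GRCm38.p6, the build also called mm10; Smad2, Smad4 and Trim33 were not in the promoter table. Capitals mark CAGAC (or its complement GTCTG), a core that Smad3 and Smad4 bind, and GGCGC (or GCGCC), a GC-rich motif also bound by Smads. For Tgfbr1, the first of its starts is shown (chr4:47352972-47353221, plus strand), for Tgfbr2 chr9:116175364-116175613 (minus), for Smad3 chr9:63757995-63758244 (minus) and for Acvr1b chr15:101173822-101174071 (plus).
Tgfbr1: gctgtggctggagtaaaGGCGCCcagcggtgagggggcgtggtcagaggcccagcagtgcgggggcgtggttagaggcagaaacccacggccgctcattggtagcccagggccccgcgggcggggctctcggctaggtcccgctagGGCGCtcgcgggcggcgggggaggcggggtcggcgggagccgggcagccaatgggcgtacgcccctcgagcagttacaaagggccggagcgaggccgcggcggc
Tgfbr2: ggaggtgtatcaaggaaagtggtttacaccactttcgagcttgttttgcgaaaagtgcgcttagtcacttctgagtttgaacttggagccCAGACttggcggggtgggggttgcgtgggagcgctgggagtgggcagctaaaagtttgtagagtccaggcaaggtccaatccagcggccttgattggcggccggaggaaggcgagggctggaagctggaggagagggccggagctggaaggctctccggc
Smad3: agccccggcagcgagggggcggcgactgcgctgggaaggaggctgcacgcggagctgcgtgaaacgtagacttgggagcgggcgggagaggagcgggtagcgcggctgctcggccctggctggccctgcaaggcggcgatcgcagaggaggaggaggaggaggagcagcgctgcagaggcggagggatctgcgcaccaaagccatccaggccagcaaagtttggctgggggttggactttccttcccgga
Acvr1b: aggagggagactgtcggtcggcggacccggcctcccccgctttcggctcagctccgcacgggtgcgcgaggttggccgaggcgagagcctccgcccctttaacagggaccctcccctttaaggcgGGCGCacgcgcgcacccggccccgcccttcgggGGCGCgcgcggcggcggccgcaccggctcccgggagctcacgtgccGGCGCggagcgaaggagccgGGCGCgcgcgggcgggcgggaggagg

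CAGAC occurred 1 time before the Tgfbr2 start and 0 times in the other windows shown. It also occurred 1 time in the window of a second Tgfbr1 start and 1 time before each of Acvr2a and Acvr2b, which did not pass with SB, and 42.2% of the 32536 distinct windows in the table held it on either strand. GGCGC occurred 3 times before Tgfbr1 and 4 times before Acvr1b, counting overlapping matches, and 0 times before Tgfbr2 and Smad3; 32.2% of all windows held it. The palindrome GTCTAGAC and the Foxh1 motif TGTNNATT were in none of the 4 windows, against 0.169% and 10.9% of all windows. These are matches of letters only, and no binding was measured.

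In the Activin comparison with control siRNA, no member was called, although pathway targets rose. By edgeR's quasi-likelihood test 0 of 9 passed, 5 had an unadjusted p under 0.05, and 0 were called by DESeq2. An unadjusted p under 0.05 was found for 20.6% of all genes. Over all genes 4.83% were called, 2.95% higher and 1.88% lower. Tgfbr2 was at 3.90, 3.07 and 2.64 CPM with Activin, against 4.89, 4.42 and 4.27 CPM without addition. These groups did not overlap, but the log2 fold change of -0.50 (95% interval -0.94 to -0.06) did not pass (edgeR adjusted p = 0.176). Activin ranges did not overlap those without addition for 5 of 9 members, and for 27.6% of all genes tested.

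Tgfbr1 was at 67.8, 64.8 and 64.2 CPM with Activin, against 55.2, 61.5 and 53.7 CPM without addition. Its log2 fold change of 0.21 (95% interval 0.04 to 0.37) did not pass (edgeR adjusted p = 0.131). Trim33 was at 197, 206 and 202 CPM with Activin, against 186, 183 and 166 CPM, a log2 fold change of 0.18 (0.04 to 0.31). Trim33 likewise did not pass (edgeR adjusted p = 0.124). Acvr1b was at 54.5, 49.5 and 45.4 CPM, against 54.0, 55.5 and 60.1 CPM, a log2 fold change of -0.18 (-0.36 to -0.01) with overlapping groups. Acvr2b had a log2 fold change of 0.22, which was 0.08 without the low replicate 3 of the cells without addition. The intervals of Acvr2a, Smad2, Smad3 and Smad4 all held 0, with log2 fold changes of 0.06, -0.09, 0.09 and 0.07. Without the same replicate 3 the value of Smad3 turned to -0.04 (edgeR adjusted p = 0.924).

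Set against SB, Activin-treated cells had less Tgfbr1, Tgfbr2, Smad2 and Smad3 and more Trim33. Here 4 of 9 members were called lower and 1 higher with Activin, where 19% of all genes were called lower, 19% higher and 38% in all. Group ranges did not overlap for these 5 members and for 54.9% of all genes. The SB libraries are those of the previous comparison, so this is not a separate sighting of their levels. Tgfbr2 differed by -1.74 ± 0.20 on the log2 scale (edgeR adjusted p = 8.19e-07), a fold of 0.300 for Activin over SB. Tgfbr1 differed by -0.53 ± 0.08 (edgeR adjusted p = 1.84e-05) and Smad2 by -0.39 ± 0.06 (edgeR adjusted p = 4.05e-05).

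Smad3 was at 70.5, 67.6 and 72.3 CPM with Activin, against 82.7, 90.1 and 82.4 CPM with SB. The groups did not overlap, with a difference of -0.28 ± 0.10 (edgeR adjusted p = 0.0397), but the call was lost when any 1 of the 6 libraries was left out (adjusted p = 0.0592 to 0.132). Trim33 was at 197, 206 and 202 CPM with Activin, against 162, 173 and 186 CPM with SB. It was higher by 0.22 ± 0.07 (edgeR adjusted p = 0.0127), a call lost without Activin replicate 2 (adjusted p = 0.0515) or SB replicate 1 (0.0873). Acvr1b, Acvr2a, Acvr2b and Smad4 did not pass, with log2 differences of -0.12, -0.13, 0.06 and 0.01.

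**Figure D3:**
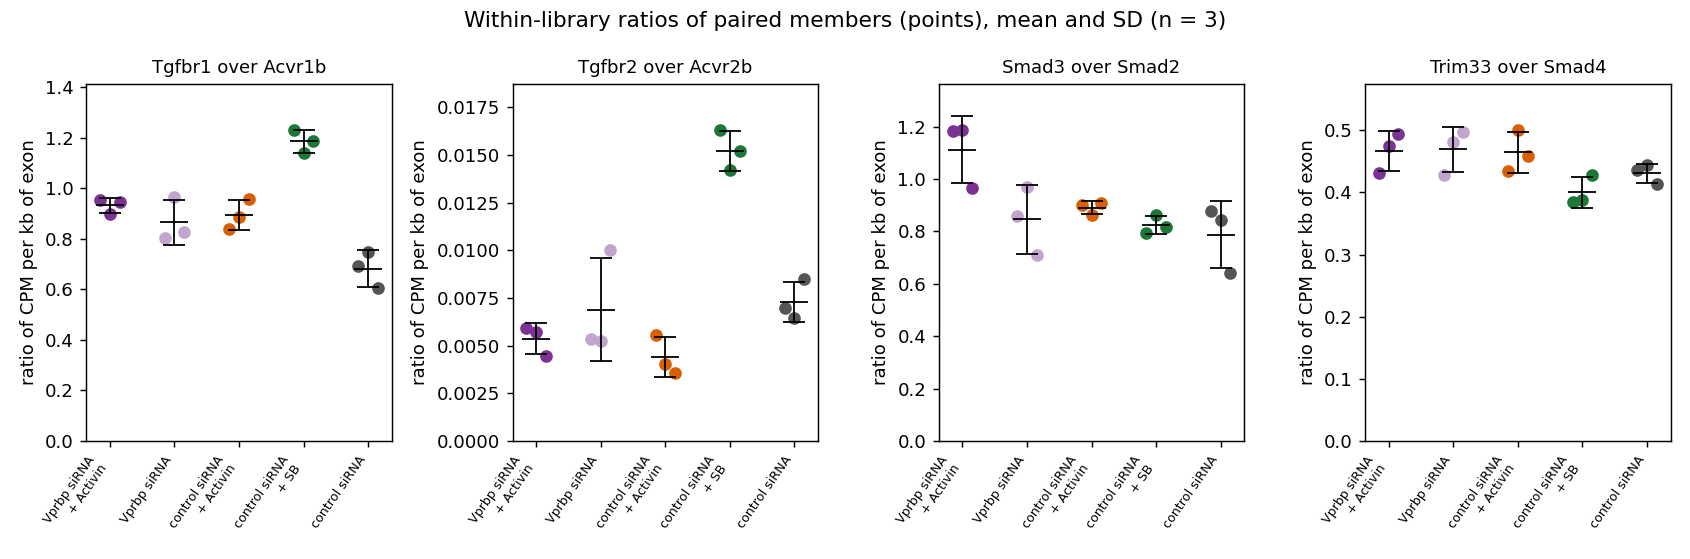
Within-library ratios of CPM per kb of exon for 4 pairs of members (points, 3 libraries per group) with mean and SD (black); the y axes start at 0. Tgfbr1 over Acvr1b was 1.14 to 1.23 with SB and at most 0.968 in the other groups, and Tgfbr2 over Acvr2b was 0.0142 to 0.0163 with SB and at most 0.010 elsewhere.

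Vprbp siRNA, which lowered Vprbp RNA by 28.6% without and 22.8% with Activin, gave no call among the receptors and Smads. Vprbp (Dcaf1) brings substrates to a ubiquitin ligase of the CRL4 type. Without addition 0 of 9 members were called by edgeR's quasi-likelihood test, 2 had an unadjusted p under 0.05, and 0 were called by DESeq2. An unadjusted p under 0.05 was found for 8.16% of all genes. Over all genes 0.0411% were called, 6 of 14600, with 0.0342% higher and 0.00685% lower. Same-numbered libraries of these groups deviated together, and with the numbers as a block 18 genes were called, none of them a member.

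The 2 members with an unadjusted p under 0.05 were Tgfbr1 and Trim33. Tgfbr1 was at 65.0, 66.6 and 63.9 CPM with Vprbp siRNA, against 55.2, 61.5 and 53.7 CPM with control siRNA. The groups did not overlap, with a log2 fold change of 0.20 (95% interval 0.04 to 0.36; edgeR adjusted p = 0.535). Trim33 was at 190, 204 and 199 CPM, against 186, 183 and 166 CPM, a log2 fold change of 0.15 (0.01 to 0.28; edgeR adjusted p = 0.574). Without the 3 libraries that lay apart these values were 0.18 for Tgfbr1 and 0.10 for Trim33. Tgfbr2 had a log2 fold change of 0.07 with all libraries and -0.25 without those 3, and was called in neither fit. Group ranges did not overlap for 2 of 9 members and for 12.3% of all genes tested. Smad4, the reported ligase substrate of Trim33, had a log2 fold change of 0.03 with an interval of -0.09 to 0.15.

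With Activin, 0 of 9 members were called between the siRNAs by edgeR, 0 had an unadjusted p under 0.05, and 0 were called by DESeq2. Of all genes, 10.5% had an unadjusted p under 0.05. Over all genes 0.0411% were called, again 0.0342% higher and 0.00685% lower. Smad3 was at 88.0, 79.4 and 76.7 CPM with Vprbp siRNA, against 70.5, 67.6 and 72.3 CPM with control siRNA. It was the 1 member whose groups did not overlap, against 17.4% of all genes, and its log2 fold change was 0.21 (95% interval -0.0031 to 0.43). Tgfbr2 had the largest estimate of the 9, 0.37 with an interval of -0.08 to 0.81, at 4.31, 4.41 and 3.68 CPM with Vprbp siRNA, against 3.90, 3.07 and 2.64 CPM. The intervals of the other 7 members lay between -0.28 and 0.28.

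**Figure D4:**
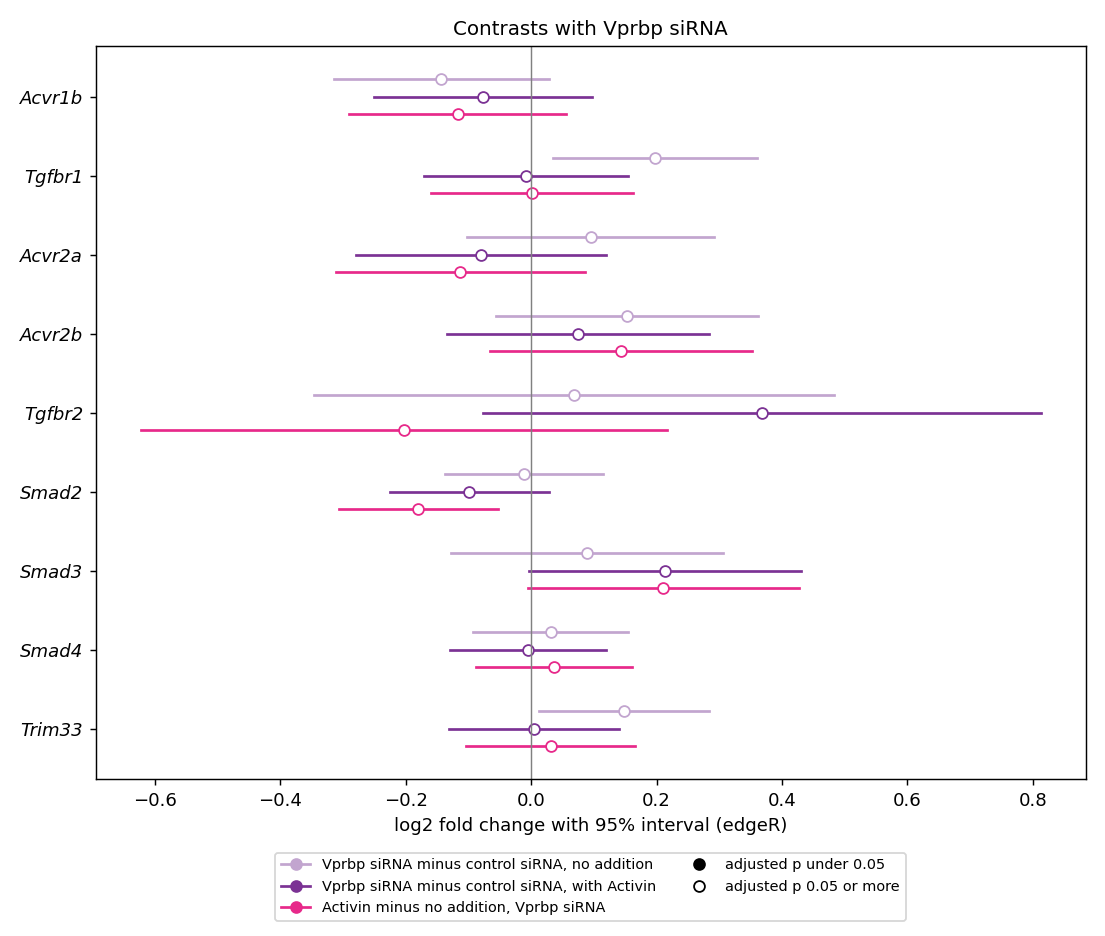
Log2 fold change (points) with 95% interval (lines) of 9 members for 3 comparisons that involve Vprbp siRNA; open points did not pass an edgeR adjusted p of 0.05, and none passed. The widest intervals were those of Tgfbr2, reaching from -0.62 to 0.81 over the 3 comparisons.

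In Vprbp siRNA cells Activin also gave 0 calls among 9 members by edgeR's quasi-likelihood test, with 1 at an unadjusted p under 0.05, against 19.7% of all genes, and 0 by DESeq2. Over all genes 6.12% were called, 3.65% higher and 2.47% lower. Smad2 was at 118, 106 and 126 CPM with Activin, against 133, 129 and 134 CPM without addition. It was the 1 member whose groups did not overlap, against 21.4% of all genes, and its log2 fold change was -0.18 (95% interval -0.31 to -0.05; edgeR adjusted p = 0.0871). Without replicate 3 of the Activin libraries it passed, at -0.23 (edgeR adjusted p = 0.0243). Tgfbr2 was at 4.31, 4.41 and 3.68 CPM with Activin, against 3.82, 3.98 and 6.35 CPM, where the high value was that of replicate 3, which lay apart. Its groups overlapped, with a log2 fold change of -0.20 (-0.62 to 0.22). Without that replicate the sign turned, at 0.08 (edgeR adjusted p = 0.923).

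The Activin response of the members was then compared between the siRNAs. In the test of the difference of responses, 0 of 9 members passed by edgeR's quasi-likelihood test, 0 had an unadjusted p under 0.05 and DESeq2 called 0, and 0% of all genes were called. The smallest unadjusted p was that of Tgfbr1 (0.0755), whose response was 0.00 in Vprbp siRNA cells and 0.21 in control siRNA cells, a difference of -0.21 (95% interval -0.44 to 0.02).

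Averaging the Activin effect over both siRNAs, a comparison added after the data were seen, used 6 libraries against 6. Smad2 was lower, with a log2 fold change of -0.14 ± 0.04 (edgeR quasi-likelihood, adjusted p = 0.0349), where 15.8% of all genes were called, 8.45% higher and 7.4% lower. The 6 Activin libraries were at 106 to 126 CPM and the 6 libraries without addition at 129 to 134 CPM. The share of all genes whose 6 against 6 libraries do not overlap was not computed, so this separation adds nothing to the call. The call was lost in 12 of 20 alternatives, with adjusted p over all alternatives between 0.00969 and 0.119. The other 8 members were not called, with Acvr1b at -0.15 ± 0.06 (adjusted p = 0.0847), Acvr2b at 0.18 ± 0.07 (0.0865) and Tgfbr2 at -0.35 ± 0.15 (0.106).

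Averaging the Vprbp siRNA effect over both media called 0 of 9 members by edgeR, with 0 at an unadjusted p under 0.05 and 0 by DESeq2, against 0.938% of all genes, 0.664% higher and 0.274% lower. Smad3 had the smallest unadjusted p (0.0528), with a log2 fold change of 0.15 (95% interval -0.0020 to 0.30).

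Other genes of the pathway were called with Activin as well as with SB. They were 61 textbook ligands, co-receptors, antagonists, BMP receptors and Smads, inhibitors and modifiers, of which 58 were tested. These lists too were chosen with earlier results of these data known. With Activin 9 rose and 0 fell, and with SB 4 rose and 16 fell, both against control siRNA cells without addition, which the comparisons share. Over all genes 4.83% were called with Activin and 22.6% with SB, and the counts of single lists are to be read against these shares.

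Of 8 inhibitory Smads and receptor inhibitors, 3 rose with Activin: Pmepa1 (0.75 ± 0.09), Smad7 (1.05 ± 0.17), which recruits ligases to the type I receptor, and Ski (0.31 ± 0.07). With SB 5 of the 8 fell, led by Pmepa1 (-1.68 ± 0.10), Ski (-0.80 ± 0.07), Smad7 (-1.97 ± 0.20) and the co-repressor gene Skil (-1.69 ± 0.18). Of 12 co-receptors and ligand antagonists 6 fell with SB and 0 rose. Tdgf1, the Cripto co-receptor that links Nodal to Acvr1b, was at 28.2 ± 5.0 CPM with SB, against 207 ± 70 CPM without addition (n = 3 each), a log2 fold change of -2.88 ± 0.31. With Activin it rose by 1.16 ± 0.28. Acvr1b, the receptor it works with, did not pass in either comparison.

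Among ligands, 4 of 7 Nodal and Activin ligand genes were tested. The Activin subunit gene Inhbb (-2.37 ± 0.13) and Nodal (-0.99 ± 0.10) fell with SB, and Gdf11 (1.06 ± 0.23) rose. None of the 3 TGF-beta ligand genes was called with SB. Against SB, Activin-treated cells had lower Tgfb3 (-1.04 ± 0.24) and Tgfb1 (-0.91 ± 0.26), the same direction as Tgfbr1 and Tgfbr2. Of 6 BMP receptor genes, Bmpr1a alone was called with SB and rose (0.40 ± 0.06), and 0 of 3 BMP Smads were called.

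Of 14 Smad anchors, ligases, deubiquitinases and the phosphatase gene, 1 rose and 2 fell with SB. Zfyve9, which encodes the Smad2 and Smad3 anchor SARA, rose (0.46 ± 0.09). Trim24, a relative of Trim33, fell (-0.40 ± 0.07), as did Nedd4l (-0.37 ± 0.08), which encodes a ligase for activated Smad2 and Smad3. Among the partners and co-activators, Foxh1, the DNA-binding partner of Smad2, rose with SB (0.24 ± 0.07). Between the siRNAs 0 of 58 were called without or with Activin by edgeR or DESeq2. Of the 58, 4 without and 8 with Activin had an unadjusted edgeR p under 0.05, against 8.16% and 10.5% of all genes.

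**Figure D5:**
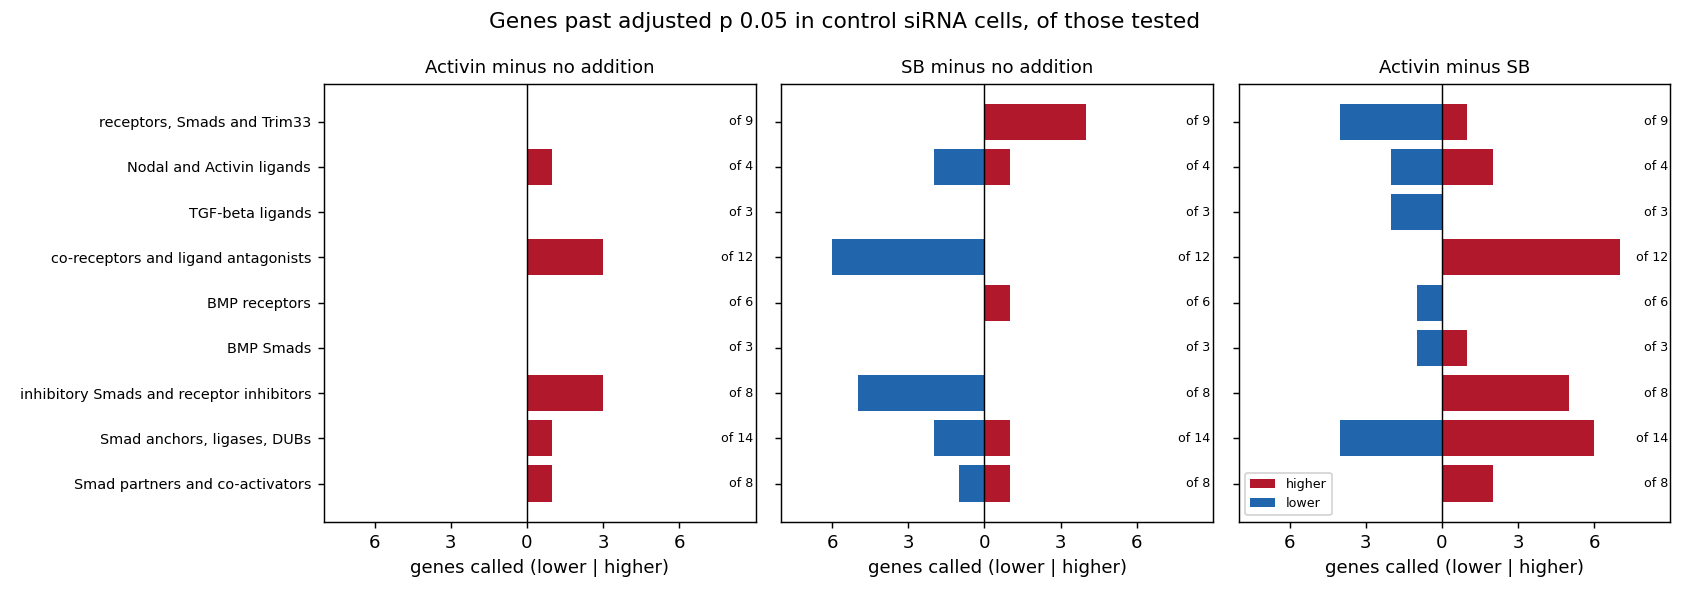
Number of genes called higher (red, right) or lower (blue, left) at an edgeR adjusted p of 0.05 in 3 comparisons of control siRNA groups, for the receptors, Smads and Trim33 and for 8 other pathway lists; the number tested is at the right edge. With SB the receptors and Smads had 4 higher and 0 lower, and the inhibitory Smads and receptor inhibitors 0 higher and 5 lower.

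The genes most like each called member were found by the root-mean-square difference of log2 CPM, each centred on its own mean, over the 15 libraries. This distance grows with how much a gene varies, so it does not rank the members by how closely they were matched. The members' own root-mean-square deviations from their means were 0.606 for Tgfbr2, 0.257 for Tgfbr1, 0.171 for Smad2, 0.189 for Smad3 and 0.113 for Trim33. Tgfbr2 was closest to Lxn (0.186), a carboxypeptidase inhibitor, and Ankrd33b (0.202). Next to it came the small heat shock protein gene Cryab (0.212), the imprinted gene Peg10 (0.221) and Sfmbt2 (0.223). Tgfbr1 was closest to Ctnnb1 (0.0994), which encodes beta-catenin, then Arid3b (0.11), Ralgapa2 (0.111), Erbb2ip (0.113) and Cd99l2 (0.114). Smad2 was closest to Uhrf1 (0.0559), a reader of hemimethylated DNA, then Camsap2, Trip4 and Zfp516. Smad3 was closest to Shroom3 (0.0826), Fam189b, Prdx2, Ralgps2 and Impad1. Trim33 was closest to Herc4 (0.0448), Mms22l, Wdr43, Usp42 and Topbp1. No member was among the 5 genes nearest to another member.

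On GRCm38 the members lie on 6 chromosomes. Acvr2b (119401583 to 119442148), Tgfbr2 (116087695 to 116175363) and Smad3 (63646766 to 63757994) are on chromosome 9, and Smad2 (76241090 to 76311748) and Smad4 (73634790 to 73703791) on chromosome 18. Acvr1c (58267453 to 58357896) and Acvr2a (48814109 to 48903264) are on chromosome 2, Trim33 (103279293 to 103358770) on chromosome 3, Tgfbr1 (47353222 to 47414926) on chromosome 4 and Acvr1b (101174072 to 101213684) on chromosome 15. In GENCODE M21, 7.84% of the exon length of Acvr2a overlaps the antisense gene Orc4 and 1.81% of that of Acvr1c overlaps an antisense transcript, so their reads cannot be told apart without strand. The exons of the other 8 members overlap no other gene in that annotation.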

How the data were processed

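The deposited values are raw counts, 1 row per gene symbol. The submitters' processing notes list HTSeq 0.6.1p1 and the build mm10. No source used here names the aligner, annotation or strand setting. Its 5 tally rows were left out (10.3% to 16.0% of fragments outside genes, 27.7% to 29.5% not aligned). Groups and numbers come from sample titles, columns from sample descriptions.

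Genes passing edgeR's filterByExpr (minimum count 10) were kept, 14600 of 24451, and scaled by TMM (0.985 to 1.02). The quasi-likelihood test of edgeR 4.0.16 (robust, R 4.3.3) was fitted over all 15 libraries with 1 mean per group, and 95% intervals come from the same fit. A call is a Benjamini-Hochberg adjusted p under 0.05. Alternatives were RLE factors, library totals, other filters, DESeq2 1.42.0, a replicate block, subsets of libraries and leaving out each library. The procedure was tested on simulated counts, drawn independently for each library, with changes in the SB group only. They held no shared deviation of same-numbered libraries, and their recovery is not reported here.

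Replicates differed by more than sampling noise (chi-square per degree of freedom 2.73 to 15.7). Deviations of same-numbered libraries correlated at 0.123, 0.196 and 0.369 between the untreated siRNA groups, from the data alone, and in no other pair of groups above 0.1 at all 3 numbers. Named genes are the members, Vprbp, Lefty1, up to 4 called genes per list by smallest p (described lists), and the 5 genes most like each called member, unnamed gene models left out; some genes this rule names are not reported here. Counts of 5 or fewer are named in part. Members and lists were chosen with earlier results of these data known.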

Additional observations from a re-analysis of the deposited data

How the results depend on the processing

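With SB in control siRNA cells 4 members were called, and leaving out 1 library gave 3 to 4; Tgfbr1, Tgfbr2 and Smad2 passed in all 14 alternatives and Smad3 in 12. For Activin against SB 5 members were called, and 3 to 4 without 1 library (3 without Activin replicate 2 or SB replicate 1). For Activin in Vprbp siRNA cells 0 were called, and 0 to 1 without 1 library. The average Activin effect over both siRNAs called 1 member, Smad2; it called 0 with no filter, with only the libraries compared or without the 3 libraries that lay apart, and 0 to 2 without 1 library. No called member changed sign in any alternative run. The replicate block changed no member's call, with 4 called for SB and 5 for Activin against SB. It moved all genes called from 705 to 1058 for Activin, from 6 to 18 for Vprbp siRNA without addition and from 6 to 51 with Activin. Those last 2 counts were 30 and 78 by DESeq2, 10 and 15 with no filter, 1 and 68 with only the libraries compared, and 76 and 205 once the 3 libraries standing apart were removed. With only the libraries compared, Activin in Vprbp siRNA cells called 373 genes, against 894. Leaving out 1 library gave 265 to 721 calls for Activin in control siRNA cells and 351 to 1167 in Vprbp siRNA cells. For the siRNA comparisons it gave 2 to 37 without addition and 0 to 21 with Activin. The average siRNA effect called 137 genes, against 273 with the block, 76 with only the libraries compared, 475 without the libraries standing apart, 343 by DESeq2 and 24 to 395 without 1 library. The difference of responses called 0 genes, and 1 without the libraries standing apart. Depth limits Tgfbr2 most, at 34 to 149 counts per library.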

Other observations

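Within a library, Smad3 over Smad2 per kb was 1.19, 1.19 and 0.965 in Vprbp siRNA cells with Activin, against 0.899, 0.862 and 0.909 in control siRNA cells with Activin, and these ranges did not overlap. Without addition the ratio was 0.860, 0.971 and 0.709 with Vprbp siRNA, against 0.876, 0.844 and 0.640 with control siRNA, and overlapped. The low value of each of those groups was that of replicate 3, which lay apart. Replicate 1 of Vprbp siRNA with Activin, at 1.19, also lay apart. No test was run on these ratios. Ratios of other pairs were computed as well, and how often the ratios of gene pairs separate between groups was not computed. The separation thus adds no call.

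Vprbp, the siRNA target, was itself lower with SB in control siRNA cells. It was at 144, 151 and 157 CPM with SB, against 173, 167 and 173 CPM without addition, and the groups did not overlap. The log2 fold change was -0.18 ± 0.06 (edgeR quasi-likelihood, adjusted p = 0.0486), close to the threshold. With SB 11.3% of all genes were called lower, and 37.2% had groups that did not overlap. Whether Vprbp passed in the alternatives was not examined.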
